A study of Urochloa humidicola with 8 samples.

Results

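Among 48695 assembled transcripts of Urochloa humidicola young leaves, 162 were present in exactly 4 of the 8 libraries and absent from the other 4. They were selected on their own read values: a transcript counted as present at 2 CPM or more (reads scaled to a common library total) and as absent under 3 rounded reads. Any 4 libraries could be the ones with the transcript, so the 162 fall on the 35 possible splits into 4 and 4. One of these splits sets all high lignin against all low lignin libraries. Because the same values chose the transcripts, their presence and levels are given here as a description without a test.

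Urochloa humidicola is a polyploid tropical forage grass that mostly forms seed without fertilisation of the egg cell, so seedlings are often copies of the mother plant. Lignin is the phenolic polymer that stiffens secondary cell walls and lowers the digestibility of grass leaves. In a polyploid, several copies of a gene can each have an entry of their own in a transcript set, and the quantification then divides a read that matches several entries among them, which gives fractional estimates.

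The libraries came from the second extended leaf of 4 samples labelled High Lignin (H1 to H4 here) and 4 labelled Low Lignin (L1 to L4). The samples were chosen on lignin percentages from an earlier study, which are not in the files. The labels give no applied agent, age, genotype or batch, nor whether samples were separate plants, so any spread between samples may be partly technical. Totals ran from 7717993 to 10805639 rounded reads, and at these totals 2 CPM corresponded to between 15.4 and 21.6 reads. The transcripts carry running numbers and no gene names, so no gene, pathway or cell type marker could be looked up and the tissue label could not be checked.

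Presence in 4 libraries and a clear absence from the rest was uncommon. A further 1631 transcripts reached 2 CPM in exactly 4 libraries but had 3 or more reads in at least 1 other library, which left 162 of 1793. Counted by the number of libraries that held them, with all other libraries under 3 reads, there were 914 transcripts in 1 library, 292 in 2, 174 in 3, 162 in 4, 180 in 5, 233 in 6, 802 in 7 and 15031 in all 8. The number was lowest at 4.

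**Figure D1:**
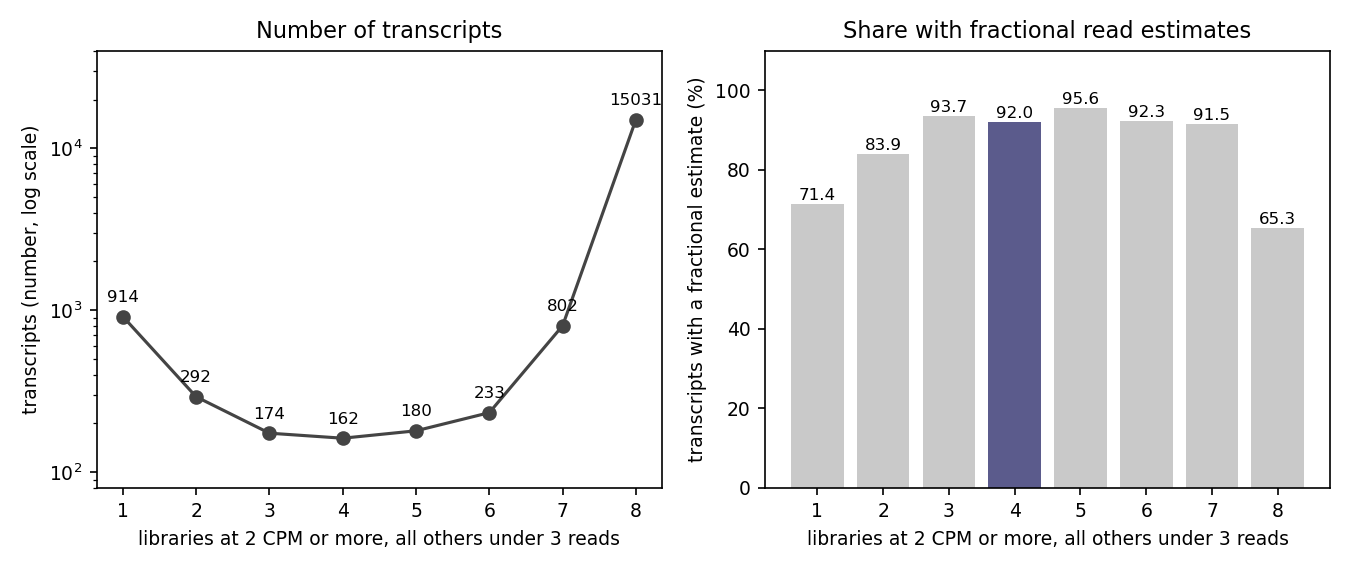
Transcripts by the number of libraries at 2 CPM or more with all others under 3 reads (x axis), as their number on a log axis (left) and as the percentage with a fractional read estimate in at least 1 library (right). The 162 transcripts in 4 libraries are the fewest of the 8 counts, and 92.0% of them have a fractional estimate, against 65.3% of those in all 8.

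For 125 of the 162 (77.2%) the estimate rounded to 0 reads in each of the 4 absent libraries. It was exactly 0 in all 4 for 62 of these (38.3% of the 162), and above 0 but under rounding in at least 1 library for the other 63. In what follows, no read means an estimate that rounds to 0. For the rest, the 4 absent libraries together held at most 5 rounded reads. The 4 libraries with the transcript held a median of 297 reads together. A count of 0 allows up to 3 reads in a library, or between 0.278 and 0.389 CPM, and such limits cover counting error only.

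The limits set the edges of the list. Just inside, asmbl_34814 had its lowest present library at 2.02 CPM (20 reads in L2) and asmbl_10039 at 2.04 CPM (22 reads in L4). Just outside, asmbl_5218 stood at 1.989 CPM in L1 (18 reads) and asmbl_15939 at 1.988 CPM in H1 (19 reads), with the other conditions met. Another 8 transcripts missed the list by exactly 3 reads in 1 library, among them asmbl_34089 with 3 reads in L2 and asmbl_40774 with 3 reads in H4.

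The 162 transcripts were spread over all 35 splits, unevenly. A split held between 1 and 15 of them, with a median of 4. The largest was H1, H2, L2 and L3 against H3, H4, L1 and L4, with 15 transcripts (9.26%), of which 8 were present on the side with H1 and 7 on the other. Next came H1, H2, H4 and L3 against the rest with 11, and then a pair of splits with 10 each. These 4 splits cross the lignin groups.

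The split of high against low lignin held 6 transcripts (3.70% of 162). Of these, 5 were present in the high lignin libraries and 1 in the low lignin libraries. The count was above the median split, 6 splits held more, and 3 others also held 6. The 16 splits that place 3 libraries of a group with 1 of the other held 83 transcripts, a mean of 5.19 per split. The 18 splits with 2 libraries of each group on either side held 73, a mean of 4.06 per split. Seen by pattern, 42 transcripts were present in 3 high lignin and 1 low lignin library, and 41 in 1 high lignin and 3 low lignin libraries. The count on the lignin split moved with the limit for presence: it was 20 at 1 CPM, 1 at 5 CPM and 39 at 2 TPM, where 3, 7 and 1 other splits held more. With 1 library left out, so that fewer libraries had to meet the rule, it was between 10 (without H1, where 23 other splits held more) and 27 (without L4, where 1 held more).

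**Figure D2:**
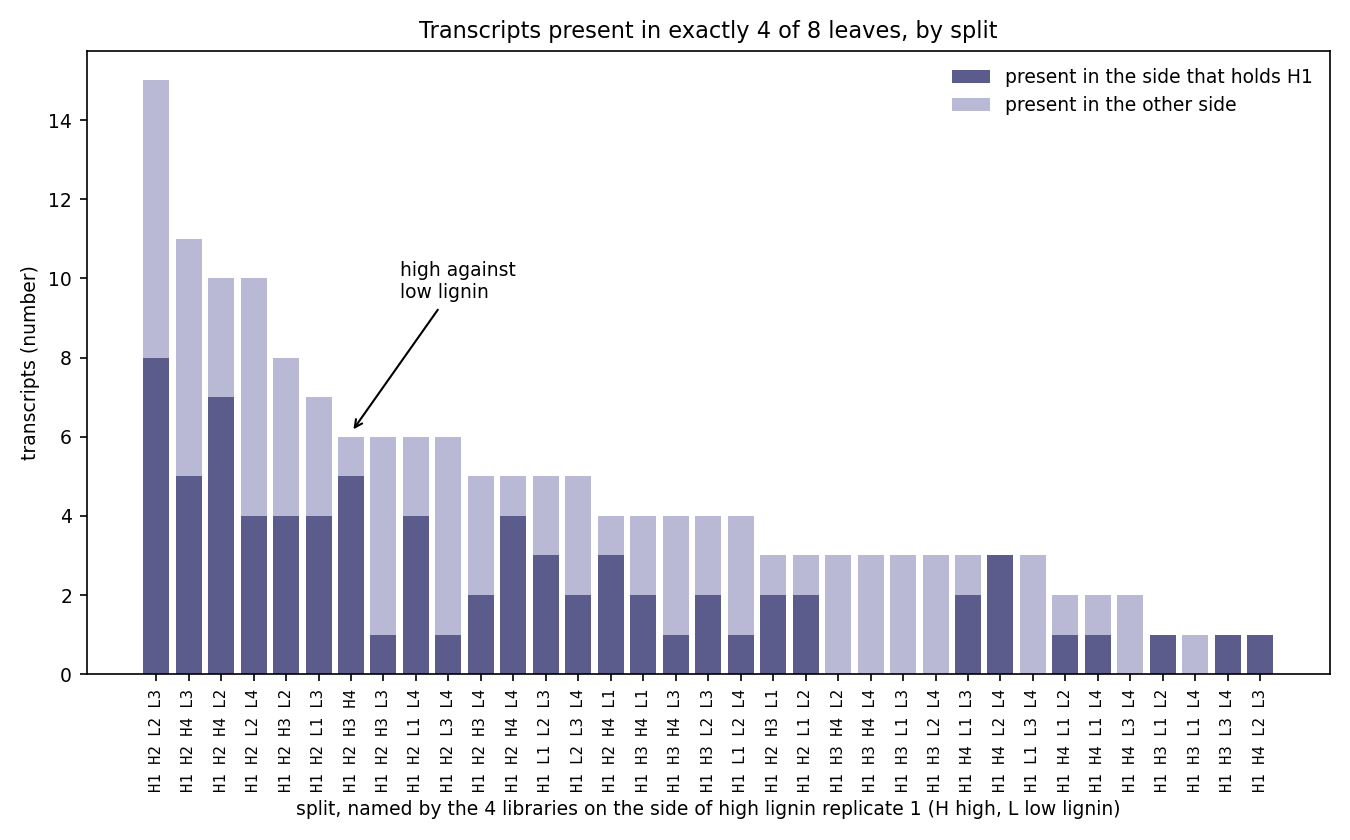
Number of transcripts (y axis) on each of the 35 splits of 8 libraries into 4 and 4 (x axis), with bars divided by which side held the transcript. The split of high against low lignin holds 6, while the largest holds 15, and the 10 splits furthest left all have H1 and H2 on the same side.

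What the larger splits had in common was that H1 and H2, a pair of high lignin libraries, shared a side. The 4 largest splits also placed H3 and L1 together on the other side. H1 and H2 were on the same side for 105 of the 162 transcripts (64.8%), both present for 56 and both absent for 49. The rule puts 12 of the 28 library pairs on the same side for every transcript, which makes the mean over pairs 69.4 transcripts or 42.9%. The 15 splits that keep H1 and H2 together held 7 transcripts on average, with a median of 6, and the 20 that part them held 2.85. The lignin split, with 6, is among those that keep them together and does not exceed their mean or median. The next pairs were H3 with H4 and L1 with L4, each on the same side for 84. H3 with L1, a pair across groups, followed at 80. At the other end were H1 with L1 at 51 and H2 with L1 at 52. Then came H1 with H3 at 55 and H2 with H3 at 58, both pairs within high lignin.

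The 6 pairs within high lignin and the 6 within low lignin both averaged 71.8 transcripts, and the 16 pairs across groups averaged 67.6. Without the H1 and H2 pair, the highest of all 28, the remaining 5 pairs within high lignin averaged 65.2. Leaving out the highest pair must lower this mean, and no pair was left out of the other kinds. It is therefore not set against the mean across groups.

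An independent measure of likeness is the Spearman correlation of log2 CPM over the 15031 transcripts at 2 CPM or more in all 8 libraries, none of which can be on the list. H1 and H2 were also the closest pair there, at 0.915. The rest of the order differed: H1 with H4 came next at 0.902 and H1 with L4 after it at 0.891, yet these pairs shared a side for 63 and 59 transcripts. Every pair with L3 lay between 0.723 and 0.768, below all other pairs, while its shared sides ran from 61 to 77 transcripts. Over the 28 pairs, which share libraries and are not independent, the rank correlation between both measures was -0.02.

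**Figure D3:**
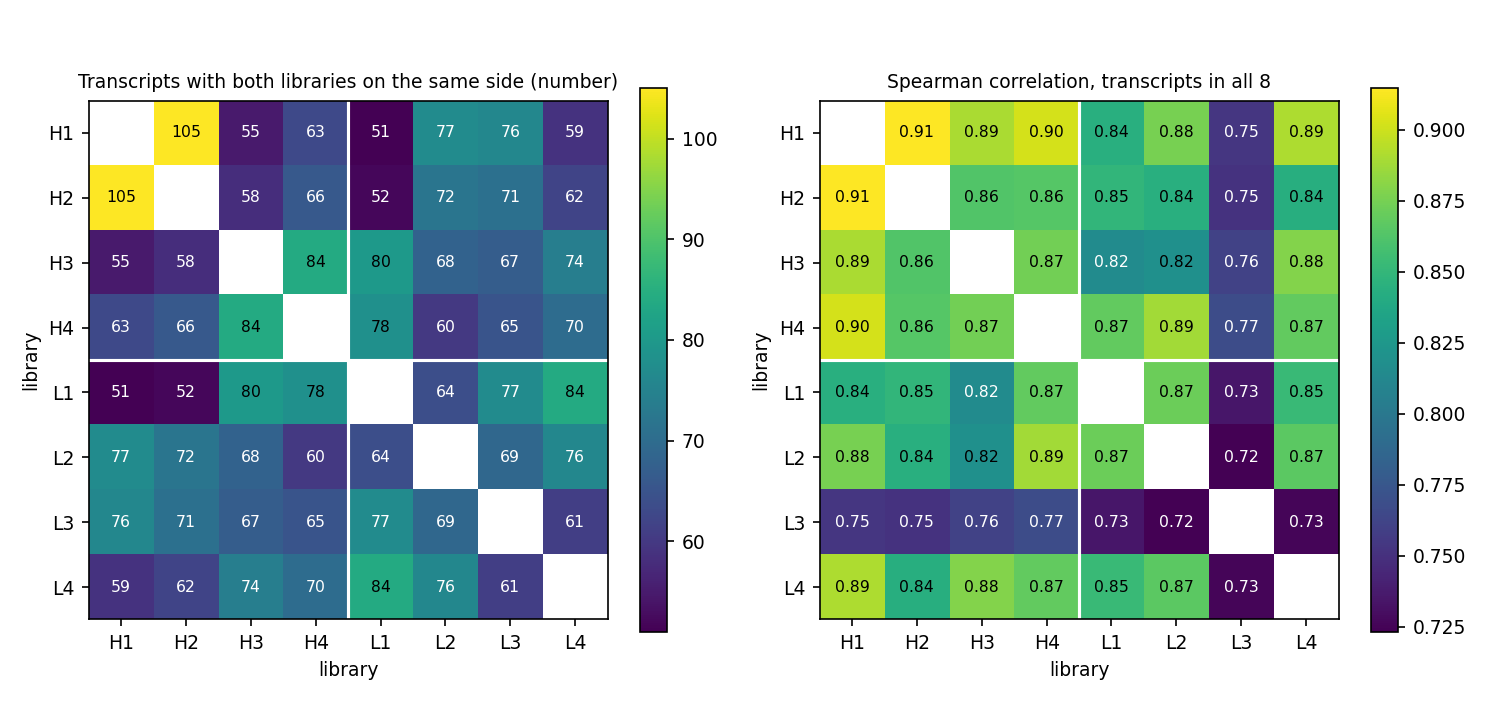
For each pair of libraries, the number of the 162 transcripts with both libraries on the same side (left) and the Spearman correlation of log2 CPM over the 15031 transcripts present in all 8 (right), on colour scales with their values printed. H1 and H2 lead both panels with 105 transcripts and 0.91; the row of L3 is low only on the right.

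The transcripts on the lignin split were few and partly neighbours in number. The entries asmbl_28294, asmbl_28295 and asmbl_28296, which are 617, 298 and 291 bases long, have consecutive numbers and formed the longest run with a single pattern among the 162. Counting the run as 1 leaves 4 on this split, and 13 other splits then hold more. For all 6 on this split, the estimate was exactly 0 in each of the 4 absent libraries.

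In the high lignin libraries, asmbl_28294 had 5.55, 5.19, 3.37 and 2.97 CPM in H1 to H4, and it had no read in L1 to L4. The entry asmbl_28295 had 7.95, 5.30, 3.37 and 5.36 CPM in H1 to H4, and no read in the low lignin libraries. The entry asmbl_28296 had 8.16, 5.52, 4.28 and 7.64 CPM in H1 to H4, and likewise none in L1 to L4. All 3 were highest in H1. That the high and low lignin libraries do not overlap is set by the rule for every transcript on this split.

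The strongest presence on this split was that of asmbl_28737, 1105 bases long. It had 58.4, 64.4, 12.6 and 19.5 CPM in H1 to H4 and no read in L1 to L4. H1 and H2 were thus both well above H3 and H4, and the highest library exceeded the lowest 5.12-fold. With a floor of 3 reads in each low lignin library, a mean of 0.301 CPM, its mean in high lignin was at least 129-fold higher. The rule asks for 2 CPM or more where a transcript is present, so a high fold over this floor is built into the selection.

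The fifth transcript present in high lignin was asmbl_45995, 1977 bases long, with 4.71, 8.17, 6.35 and 4.56 CPM in H1 to H4 and no read in L1 to L4. It was the most even of the 6, within 1.79-fold. By the same floor, asmbl_28294, the lowest by CPM, was at least 14.2-fold higher in the high lignin libraries.

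The only transcript with the reverse pattern was asmbl_41062, 834 bases long. It had no read in H1 to H4, and 15.2, 7.27, 20.8 and 3.61 CPM in L1 to L4. L3 and L1 were highest and L4 lowest. Per length, the mean level in the libraries that had them was 40.6 TPM ± 12.2 (SD, n = 4) for asmbl_28296, 35.9 TPM ± 24.5 (SD, n = 4) for asmbl_28737 and 2.86 TPM ± 0.75 (SD, n = 4) for asmbl_45995.

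**Figure D4:**
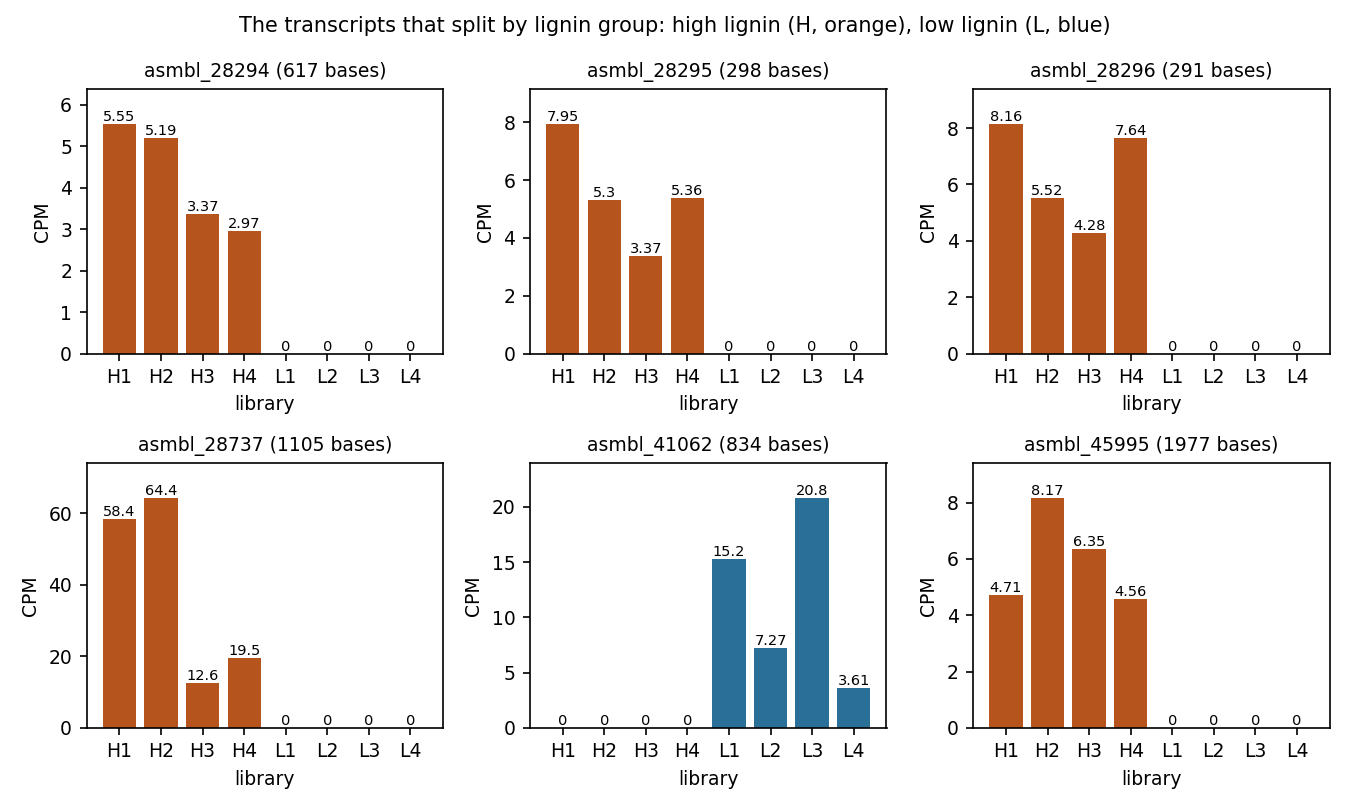
CPM (y axis, linear from 0, scaled per panel) in each library (x axis) of the 6 transcripts that separate high lignin (H1 to H4, orange) from low lignin (L1 to L4, blue). Bars are single libraries, 5 transcripts appear only in H1 to H4 and asmbl_41062 only in L1 to L4.

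For the fold test over all transcripts, the same libraries were compared by group, so the counts here describe the list and support nothing. In edgeR's quasi-likelihood test none of the 162 reached an adjusted p under 0.05 (smallest 0.442), and 0% of the 27015 tested transcripts did. At an unadjusted p under 0.05 in that test, 8 of the 162 (4.94%) were called, against 5.85% of all tested. These were the 6 on the lignin split and 2 on other splits. DESeq2 gave an adjusted p to 155 of the 162 and called the 6 on the lignin split, against 0.796% of 32544 transcripts.

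On the largest split, the 2 transcripts with the highest CPM were within 2-fold across the libraries that had them. The entry asmbl_3955, 1450 bases long, had 28.04 CPM in H1, 21.7 in H2, 29.3 in L2 and 35.5 in L3, with no read in the other 4. The entry asmbl_27175, 1075 bases long, had 21.5 CPM in H1, 25.3 in H2, 25.4 in L2 and 29.8 in L3, and again no read elsewhere. In both, L3 was highest, and L2 lay only slightly above the higher of H1 and H2. The third by CPM, asmbl_21205 (402 bases), was less even, with 11.2 CPM in H1, 14.6 in H2, 5.25 in L2 and 20.7 in L3.

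On the opposite side of that split, asmbl_43219 (2045 bases) had 20.3 CPM in H3, 17.9 in H4, 9.84 in L1 and 4.81 in L4. The entry asmbl_32514 (395 bases) had 9.59 CPM in H3, 16.4 in H4, 8.84 in L1 and 17.2 in L4. The entry asmbl_43710 (1510 bases) had 9.98 CPM in H3, 2.62 in H4, 3.31 in L1 and 13.6 in L4. All 3 had no read in H1, H2, L2 and L3, and their order of libraries differed from one to the next.

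A few transcripts reached high levels; in whole leaves, fewer cells with a transcript and less of it per cell cannot be told apart. Among the 162 the mean over the 4 libraries with the transcript had a median of 7.87 CPM, and 2 transcripts exceeded 100 CPM. The entry asmbl_8094 (748 bases) had 54.6 CPM in H1, 172 in H2, 186 in L1 and 920 in L3, against 1 read in H3 and none in H4, L2 and L4. L3 alone gave 9490 of its reads. The entry asmbl_45655 (1003 bases) had 5.18 CPM in H3, 97.6 in H4, 334 in L1 and 37.5 in L3, and no read in the other 4. Its highest library exceeded the lowest 64.4-fold, the widest range of all 162.

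A further 3 stood among the 5 highest by CPM. The entry asmbl_6636 (1820 bases) had 11.1 CPM in H3, 36.05 in H4, 47.3 in L1 and 83.4 in L2. The entry asmbl_15102 (2294 bases) had 38.4 CPM in H1, 47.7 in H2, 46.6 in H3 and 25.1 in L1. The entry asmbl_21981 (635 bases) had 61.0 CPM in H1, 70.9 in H2, 2.74 in H4 and 21.7 in L4. All 3 had no read in their other 4 libraries, and of these only asmbl_15102 stayed within 2-fold.

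Levels among the libraries with a transcript varied widely. The highest library exceeded the lowest by a median of 3.32-fold; 41 of the 162 stayed under 2-fold and 12 reached 10-fold or more. The most even were asmbl_4351 (1928 bases), with 5.55 CPM in H1, 6.96 in H2, 6.62 in H4 and 6.98 in L3, and asmbl_28216 (3196 bases), with 32 reads in each of H1, H2, H3 and L2. After asmbl_45655, the least even was asmbl_2314 (2337 bases), with 7.53 CPM in H4, 17.0 in L2, 108 in L3 and 2.41 in L4. The longest transcript, asmbl_47287 (6067 bases), had 8.999 CPM in H1, 2.98 in H3, 28.1 in H4 and 57.1 in L1.

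Every library held a similar number of the 162. They numbered 77, 92, 72 and 92 in H1 to H4 and 86, 86, 71 and 72 in L1 to L4, a mean of 83.2 ± 10.3 in high lignin and 78.8 ± 8.38 in low lignin (SD, n = 4 each). The rule puts every transcript in exactly 4 libraries, so a higher mean in either group entails a lower mean in the other. Their reads made up 0.0804%, 0.0976%, 0.0572% and 0.0836% of the totals in H1 to H4, against 0.158%, 0.0957%, 0.203% and 0.0600% in L1 to L4. The groups overlapped. Among the transcripts a library held, the median level was 6.07, 5.52, 5.51 and 5.42 CPM in H1 to H4, against 9.39, 7.07, 7.95 and 4.72 CPM in L1 to L4. Without asmbl_8094 the share in L3 was 0.111%. L3 was the highest library for 36 of the 71 transcripts it held (50.7%), L1 and L2 for 28 of 86 each, and the other 5 libraries for between 14.1% and 20.8% of those they held.

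Read division and length, which the rule did not use, are given without a test since transcripts are not replicates. A fractional read estimate in at least 1 library (beyond 0.001 of a whole number) was found in 149 of the 162 (92.0%), against 65.3% of the 15031 transcripts present in all 8 and 68.7% of the 32621 present in any library. The transcripts in 3, 5, 6 or 7 libraries, with the rest absent, had 93.7%, 95.6%, 92.3% and 91.5%, so the share is not particular to 4 libraries. It was lower for transcripts in 1 or 2 libraries, at 71.4% and 83.9%. The 1631 transcripts at 2 CPM in exactly 4 libraries with more reads elsewhere had 70.9%. What part the division of reads among entries had in the absences was not tested.

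The 13 transcripts with whole estimates in every library include asmbl_28295 and asmbl_28296 on the lignin split. H1 and H2 were on the same side for 12 of these 13. One of them, asmbl_6635 (2410 bases), had 7.64 CPM in H3, 17.5 in H4, 34.9 in L1 and 39.7 in L2, the same 4 libraries and the same order as its neighbour asmbl_6636. A neighbouring pair with whole estimates, asmbl_39829 and asmbl_39830, was present in H1, H2, H4 and L2, lowest in H4 and highest in L2 in both.

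The median length of the 162 was 1612 bases, against 1348 in transcripts present in all 8 and 1086 in those present in any library. Transcripts in 3, 5, 6 or 7 libraries, with the rest absent, had 1524.5, 1523, 1641 and 1465.5 bases, so the length was shared with them. Those in 1 or 2 libraries were shorter, at 821.5 and 1262.5 bases. A limit in CPM is met more easily by a long transcript. In TPM, which divides by length, the median level of the 162 in the libraries that held them was 5.90 TPM, against 18.2 TPM for transcripts present in all 8. It was 5.10, 4.97, 5.58 and 8.61 TPM for those in 3, 5, 6 and 7 libraries.

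Some of the 162 had consecutive running numbers: 17 of them (10.5%) had a neighbour on the list. There were 9 neighbouring pairs, of which 4 had the same pattern and 1 the exact opposite. The 4 include the pairs within the run from asmbl_28294 to asmbl_28296. No background was taken for such pairs among other transcripts. The opposite pair was asmbl_7482 and asmbl_7483, with the similar lengths of 3174 and 3131 bases. The entry asmbl_7482 had 11.7 CPM in H1, 11.4 in H2, 6.86 in L2 and 12.9 in L4. The entry asmbl_7483 had 8.42 CPM in H3, 6.96 in H4, 17.1 in L1 and 19.1 in L3. Each library thus held exactly 1 of these entries and an estimate of the other that rounded to 0. Both had fractional estimates, and the largest of the values that rounded to 0 was 0.208 reads of asmbl_7483 in H1, beside 112 reads of asmbl_7482.

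**Figure D5:**
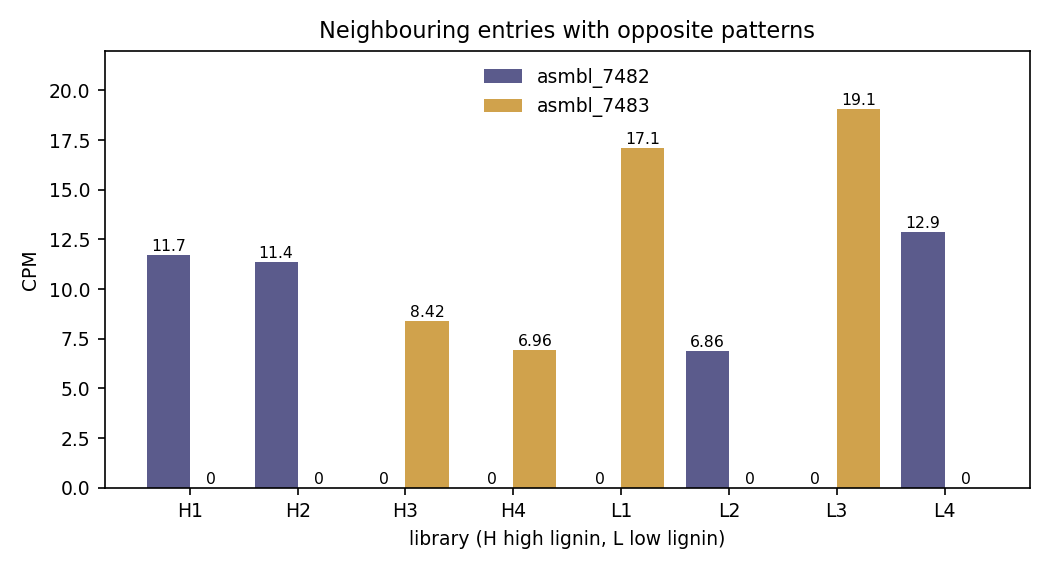
CPM (y axis) of asmbl_7482 and asmbl_7483 in each library (x axis). Bars are single libraries; every library has only 1 of both entries above a rounded 0, from 6.86 to 19.1 CPM.

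Of the 324 neighbours of the 162, at 1 number below and 1 above, 109 (33.6%) were present in all 8 libraries, near the 31.9% among neighbours of all transcripts present in any library. Another 75 (23.15%) were present in no library, below the 30.37% among neighbours of all transcripts present in any library. Of the 109 in all 8, 63 had a higher mean CPM in the 4 libraries that lacked their neighbour. The median log2 ratio of absent over present libraries was 0.10 for these 109. The same values were not taken for other transcripts, so there is no background to set them against.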

How the data were processed

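Per the file headers, the deposited file of each library gives each assembled transcript an estimated count, a TPM value, a length and an effective length; the estimated counts are not normalized, and the deposited TPM are divided by effective length. Salmon 0.7.2, StringTie 2.0.4 and FastQC 0.11.8 are the tools listed per the submitters' processing notes; for the assembly, genome build, filters and strand the method is not given in the sources used here. Replicate numbers follow accession order.

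Estimated counts were rounded, and CPM was taken on their sum per library. The rule for the list and its counts by split used Python 3.11.15 and were tested on simulated data, as were the fits. For the rule, the simulated counts varied by counting error only and had no reads in absent libraries. They do not show how the rule handles the wider spread of the real libraries. For the fits, the check required only that edgeR recover changes at a small simulated spread. Recovery at the spread fitted to the real libraries was not required and is not given here. Group fits used edgeR 4.0.16 in R 4.3.3 (filterByExpr, TMM, quasi-likelihood test, all 8 libraries) and DESeq2 1.42.0. Benjamini-Hochberg adjustment ran over the transcripts that passed the filter of each tool. All 162 were among those edgeR tested. Adjusted p-values that DESeq2 left missing stayed missing. The members and the choice of named transcripts were made with earlier results of these data known. Named are all transcripts on the lignin split, the 3 highest by CPM on each side of the largest split, the 5 highest over all splits, the longest, the 2 most and least even, those nearest the limits, and the longest run and the opposite neighbours by number; asmbl_6635, asmbl_39829 and asmbl_39830 were added after their values were seen.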

Additional observations from a re-analysis of the deposited data

How the results depend on the processing

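The number of transcripts on the list, on the lignin split and on the largest split was 162, 6 and 15. It was 401, 20 and 27 with presence at 1 CPM, 40, 1 and 6 at 5 CPM, 359, 11 and 23 with absence under 10 reads, and 745, 39 and 42 with presence at 2 TPM. Of those 745, 193 had under 3 reads in a library counted as present, and their median length was 265 bases. Then 1 split held more than the lignin split, against 3 at 1 CPM, 7 at 5 CPM and 13 with absence under 10 reads. The largest split was another one at 5 CPM, with absence under 10 reads, with whole estimates and without H1, H3, H4, L1 or L3. With whole estimates only, chosen after seeing the data, the counts were 13, 2 and 3. Absence at 0 reads, TMM-scaled totals, thinning to the smallest total, and neighbouring entries counted as 1 kept all 3 counts within 1.5 times. Counting identical entries as 1 changed nothing because the list held 0 such sets. Without 1 library, where fewer libraries have to meet the rule, they were 398 to 471, 10 to 27 and 23 to 36, and between 1 and 23 splits held more than the lignin split. H1 and H2 shared a side for between 61.2% and 77.5% of transcripts over the 9 planned settings, and between 64.1% and 67.1% without 1 of the other 6 libraries. In the group fits, DESeq2 called 259 transcripts and 6 on the list; RLE scaling, no low-count filter and the fits without 1 library called 0 in edgeR's quasi-likelihood test, where 1581 had an unadjusted p under 0.05 with all libraries. No paired analysis was possible because replicate numbers only follow accession order. Depth limits absence to under 0.278 to 0.389 CPM per library.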
